A study of Mus musculus with 36 samples.

Results

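The expression of 7 chemokine genes was followed in mouse C2C12 myotubes, which are fused muscle cells grown from a line of myoblasts. The genes were chosen by name, as the rows *Ccl2*, *Ccl7*, *Cxcl1*, *Cxcl5*, *Cxcl10*, *Cxcl12* and *Cx3cl1* of a table of 55416 genes. All 7 were detected, with at least 8 reads in each of the 36 libraries, and all 7 were among the 13995 genes tested, which are those that reached 1 RPM (a count scaled by the total of its library) in 12 or more libraries. The libraries came from 6 groups of 6. Rest Control and Rest Tug1-KD myotubes sat unstimulated with electrodes in the medium, EPS 0h Control and EPS 0h Tug1-KD myotubes were harvested directly after 3 h of electrical pulse stimulation (EPS), an in vitro stand-in for exercise, and EPS 3h Control and EPS 3h Tug1-KD myotubes were harvested after 3 h of recovery. Every myotube had been transfected on the day before with an antisense locked nucleic acid (LNA), which was directed against the long non-coding RNA *Tug1* in the Tug1-KD groups and was a negative control in the Control groups, so that no group was free of transfection, and all were harvested on day 4 of differentiation. Each library was made from 1 well of a single cell line, and the wells came from 2 independent experiments with 3 wells per condition, so p-values measure the spread between wells. The labels do not say which libraries belong to which experiment. Across all genes the libraries numbered 1 to 3 tended to part from those numbered 4 to 6 within a group, and values within these sets are given beside the pooled ones. At EPS 3h, however, Control replicate 3 lay nearer to replicates 4 to 6, and Tug1-KD replicate 3 lay between the sets. Counts on genes ranged from 17005079 to 24181167 a library, and a count of 3 corresponded to 0.124 to 0.176 RPM.

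Chemokines are small secreted proteins that bind G-protein-coupled receptors on leukocytes, endothelium and other cells and steer their migration. In muscle they are best known from injury, when fibres and resident cells call neutrophils and then monocytes into the tissue. Many chemokine genes respond within hours to NF-kB signalling, which is set off by tumour necrosis factor, interleukin-1 and Toll-like receptor ligands, and their mRNAs are often short-lived because adenine- and uridine-rich elements in the 3' UTR recruit decay factors. *Ccl2* (MCP-1) and *Ccl7* (MCP-3) attract monocytes through CCR2. *Cxcl1* and *Cxcl5* attract neutrophils through CXCR2. *Cxcl10* is induced by interferon and attracts T cells through CXCR3. *Cxcl12* (SDF-1) is a homeostatic chemokine that signals through CXCR4 and is scavenged by ACKR3. *Cx3cl1* (fractalkine) is made as a membrane-bound protein that can be shed and acts on CX3CR1.

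On GRCm39, *Ccl2* (chromosome 11, 81926397 to 81928279) and *Ccl7* (chromosome 11, 81936532 to 81938351) lie 8.3 kb apart on the plus strand with 0 protein-coding genes between them. *Cxcl5* (chromosome 5, 90907186 to 90909483), *Cxcl1* (chromosome 5, 91039094 to 91040974) and *Cxcl10* (chromosome 5, 92494497 to 92496748, minus strand) share a chromosome, with 4 protein-coding genes between *Cxcl5* and *Cxcl1*, all of them chemokine genes (*Cxcl15*, *Cxcl3*, *Pf4* and *Ppbp*). *Cxcl12* lies on chromosome 6 (117144945 to 117158328) and *Cx3cl1* on chromosome 8 (95498637 to 95509055). *Cxcl10* lies inside the span of *Art3*, which is read from the opposite strand, and *Cxcl5* and *Cx3cl1* overlap long non-coding genes of the opposite strand. The library kit keeps strand, but whether the counts used it is not given in the sources used here, so reads of those partners cannot be told apart from reads of *Cxcl10*, *Cxcl5* and *Cx3cl1*.

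RefSeq promoters on the GRCm38.p6 assembly were at hand for 4 of the 7 genes, and each window of 300 bases (250 before and 50 after the start) was searched on both strands for 6 motifs. The stretch upstream of each start is shown because it places the binding motif of NF-kB, the pathway to which most of the genes below are known to answer. It is written 5' to 3' on the gene's strand up to the base before the start, and matches are in capitals.

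Cxcl1 GRCm38.p6 chr5:90891125-90891244 (+ strand): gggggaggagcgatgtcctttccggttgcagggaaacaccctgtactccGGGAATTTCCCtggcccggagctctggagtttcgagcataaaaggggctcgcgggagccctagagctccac
Cxcl10 GRCm38.p6 chr5:92348890-92349109 (- strand): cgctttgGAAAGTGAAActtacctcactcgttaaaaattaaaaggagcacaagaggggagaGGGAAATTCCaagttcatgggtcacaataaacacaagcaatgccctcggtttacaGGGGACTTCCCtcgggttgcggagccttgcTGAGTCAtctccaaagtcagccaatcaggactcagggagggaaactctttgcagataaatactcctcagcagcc
Cxcl12 GRCm38.p6 chr6:117168415-117168534 (+ strand): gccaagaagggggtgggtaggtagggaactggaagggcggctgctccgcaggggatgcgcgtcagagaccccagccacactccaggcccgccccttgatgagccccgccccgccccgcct
Cx3cl1 GRCm38.p6 chr8:94772060-94772179 (+ strand): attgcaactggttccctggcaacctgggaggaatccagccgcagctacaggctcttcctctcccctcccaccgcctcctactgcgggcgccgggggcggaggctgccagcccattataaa

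The capitals in *Cxcl1* mark 2 overlapping matches to the NF-kB consensus, the first beginning 71 bases upstream of the start. Those in *Cxcl10* mark, from the 5' end, an interferon-stimulated response element (GAAANNGAAA), an NF-kB match 159 bases upstream, 2 overlapping NF-kB matches closer to the start, and an AP-1 site (TGANTCA) 74 bases upstream. No match to any of the 6 motifs was found in the windows of *Cxcl12* and *Cx3cl1*, and neither the CRE (TGACGTCA), the heat shock element unit (GAANNTTC) nor the CArG box was found in any of the 4. Of 32851 promoters of the same length, 8.46% held an NF-kB match, 3.44% the interferon element, 7.81% an AP-1 site, 1.79% a CRE, 7.86% a heat shock unit and 1.63% a CArG box. A match in letters does not show that a factor binds there. The 3' UTRs of the GRCm39 annotation were searched for AUUUA, the core of adenine- and uridine-rich elements. *Cxcl1* held 7 in 592 bases, or 11.8 per kb, a density above that of 99.5% of 12371 genes, whose median was 1.35 per kb. Of these, 4 fall in the 25 bases at positions 86 to 110 of the UTR, shown as DNA with the motif in capitals, ctATTTATTTAtgtATTTATTTAtt. *Cxcl5* held 5 in 1111 bases, *Ccl7* 2 in 435, *Ccl2* 1 in 275, *Cxcl10* 2 in 729, *Cxcl12* 4 in 5188 and *Cx3cl1* 1 in 1871.

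Levels can be compared between genes only per length, so RPM was divided by the length of exon sequence in kb. This length joined the exons of all annotated transcripts of a gene. For *Cxcl1* (1881 bases) and *Cxcl10* (2252 bases) it equalled the whole span of the gene, so their values may be too low. The order of the genes depends on these lengths. In Rest Control myotubes *Ccl2* was the most abundant of the 7, at 61.8 ± 39.9 RPM per kb (SD, n = 6). *Ccl7* followed at 42.6 ± 15.0, *Cxcl1* at 22.6 ± 20.0, *Cx3cl1* at 13.8 ± 3.40, *Cxcl5* at 6.49 ± 5.39, *Cxcl12* at 5.38 ± 0.942 and *Cxcl10* at 1.36 ± 1.08 RPM per kb. Neighbours in this order overlapped in range except *Cxcl12* and *Cxcl10*, although *Ccl2* was above *Ccl7* and *Ccl7* above *Cxcl1* in each of the 6 libraries. *Cxcl1* was above *Cx3cl1* in 4 of 6 libraries, and *Cxcl5* above *Cxcl12* in only 2 of 6. The order changed after stimulation. At EPS 3h in control myotubes *Ccl7* led with 28.2 ± 11.4 RPM per kb and *Ccl2* came next with 21.2 ± 9.19, with *Ccl7* the higher in 5 of 6 libraries. *Cx3cl1* (6.13 ± 1.41), *Cxcl1* (4.17 ± 2.58) and *Cxcl12* (3.9 ± 1.41) overlapped each other, and *Cxcl5* (0.883 ± 0.455) had come down to the range of *Cxcl10* (0.737 ± 0.272). The plot of levels per length shows the same move in Tug1-KD myotubes, where *Cxcl5* was the lowest of the 7 at EPS 3h with 0.50 ± 0.330 RPM per kb.

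**Figure D1:**
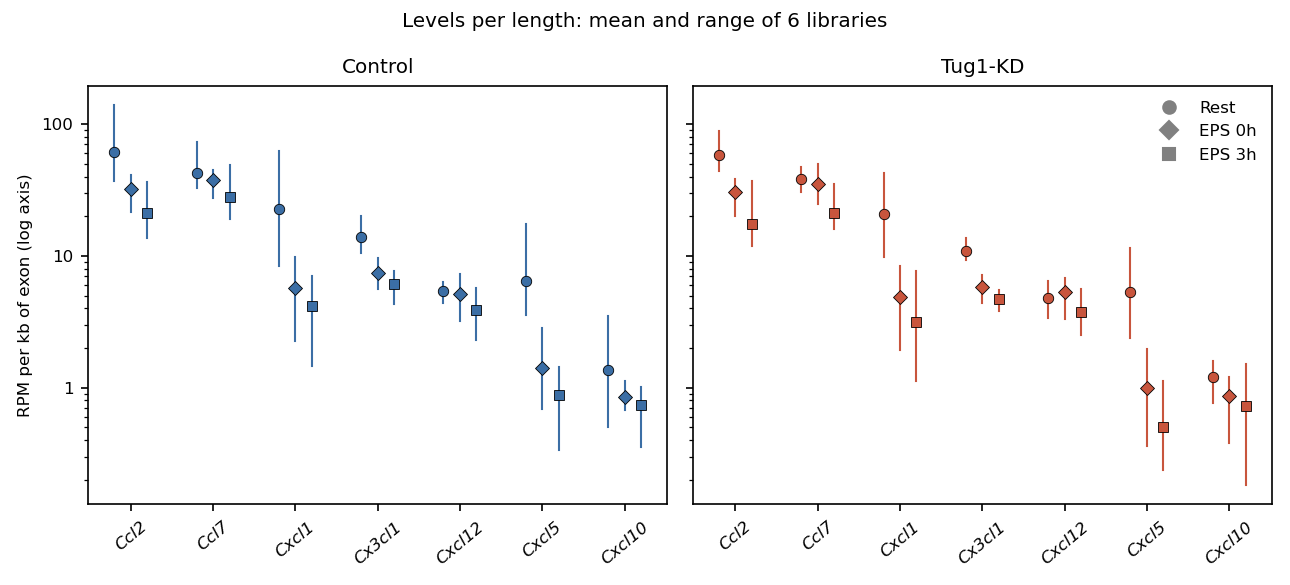
RPM per kb of exon (log axis) of the 7 chemokine genes in Control (left) and Tug1-KD (right) myotubes at Rest (circle), EPS 0h (diamond) and EPS 3h (square), as the mean of 6 libraries with a line from the lowest to the highest. *Ccl2* and *Ccl7* stay the most abundant in each group, while *Cxcl1* and *Cxcl5* drop through the order after stimulation.

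*Tug1* itself was lower in Tug1-KD libraries. At Rest it ranged from 38.6 to 58.3 RPM in control and 24.0 to 33.3 RPM in Tug1-KD libraries, without overlap (log2FC -0.83 ± 0.17 SE, FDR = 0.000915). At EPS 0h the log2FC was -0.57 (FDR = 0.0178) and at EPS 3h -0.51 (FDR = 0.0414), with overlapping ranges but a lower value in each of the 6 Tug1-KD libraries than in the control library of the same number. In control myotubes *Tug1* was higher than at Rest at EPS 0h (log2FC 0.48, FDR = 0.0223) and at EPS 3h (log2FC 0.75, FDR = 0.00033). EPS 3h Tug1-KD libraries thus had a mean of 57.0 RPM, above the 48.4 RPM of Rest Control libraries. Rest Control replicate 6 stood apart. It exceeded the other 5 Rest Control libraries for 6 of the 7 chemokine genes, all but *Cxcl12*, against 20.3% of all genes tested. It also exceeded them for 15 of 28 transcription factors and regulators of chemokine genes, among them *Nfkbie* (58.2 RPM against at most 27.7) and *Tnfaip3* (79.5 against at most 44.2), and for 10 of 17 inducers and receptors. Rest Tug1-KD replicate 6 was the highest of its group for the same 6 genes, with 100.2 RPM of *Ccl2* against at most 76.6 in the other 5 libraries, 80.3 RPM of *Cxcl1* against at most 47.6 and 38.1 RPM of *Ccl7* against at most 36.3. Each change of the 7 chemokine genes from Rest in control myotubes is also given without Rest Control replicate 6. Changes of other genes below are given only with that library included.

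To ask how the chemokine genes responded to stimulation, EPS 0h and EPS 3h were compared with Rest within each LNA (edgeR quasi-likelihood test, FDR over all 13995 genes). Each LNA had a single Rest group for both harvest times, so stimulation and time in culture cannot be fully told apart. Expression was lower at EPS 0h for 4 of 7 genes in control myotubes, against 18.4% of all genes tested that were called lower, and for 4 of 7 in Tug1-KD myotubes, against 21.2%. At EPS 3h 6 of 7 were lower in control myotubes and 5 of 7 in Tug1-KD myotubes, where 25.9% of all genes were called lower in each. None of the 7 was called higher in any of the 4 comparisons. The median log2FC of the 7 genes in control myotubes was -0.89 at EPS 0h and -1.17 at EPS 3h, where the median over all genes tested was -0.03 and -0.02. *Cxcl5* and *Cxcl1* fell most, *Ccl2* and *Cx3cl1* less, *Ccl7* and *Cxcl10* little, and *Cxcl12* did not pass the test in this fit. In bulk RNA, fewer cells of a type and less RNA per cell cannot be told apart.

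**Figure D2:**
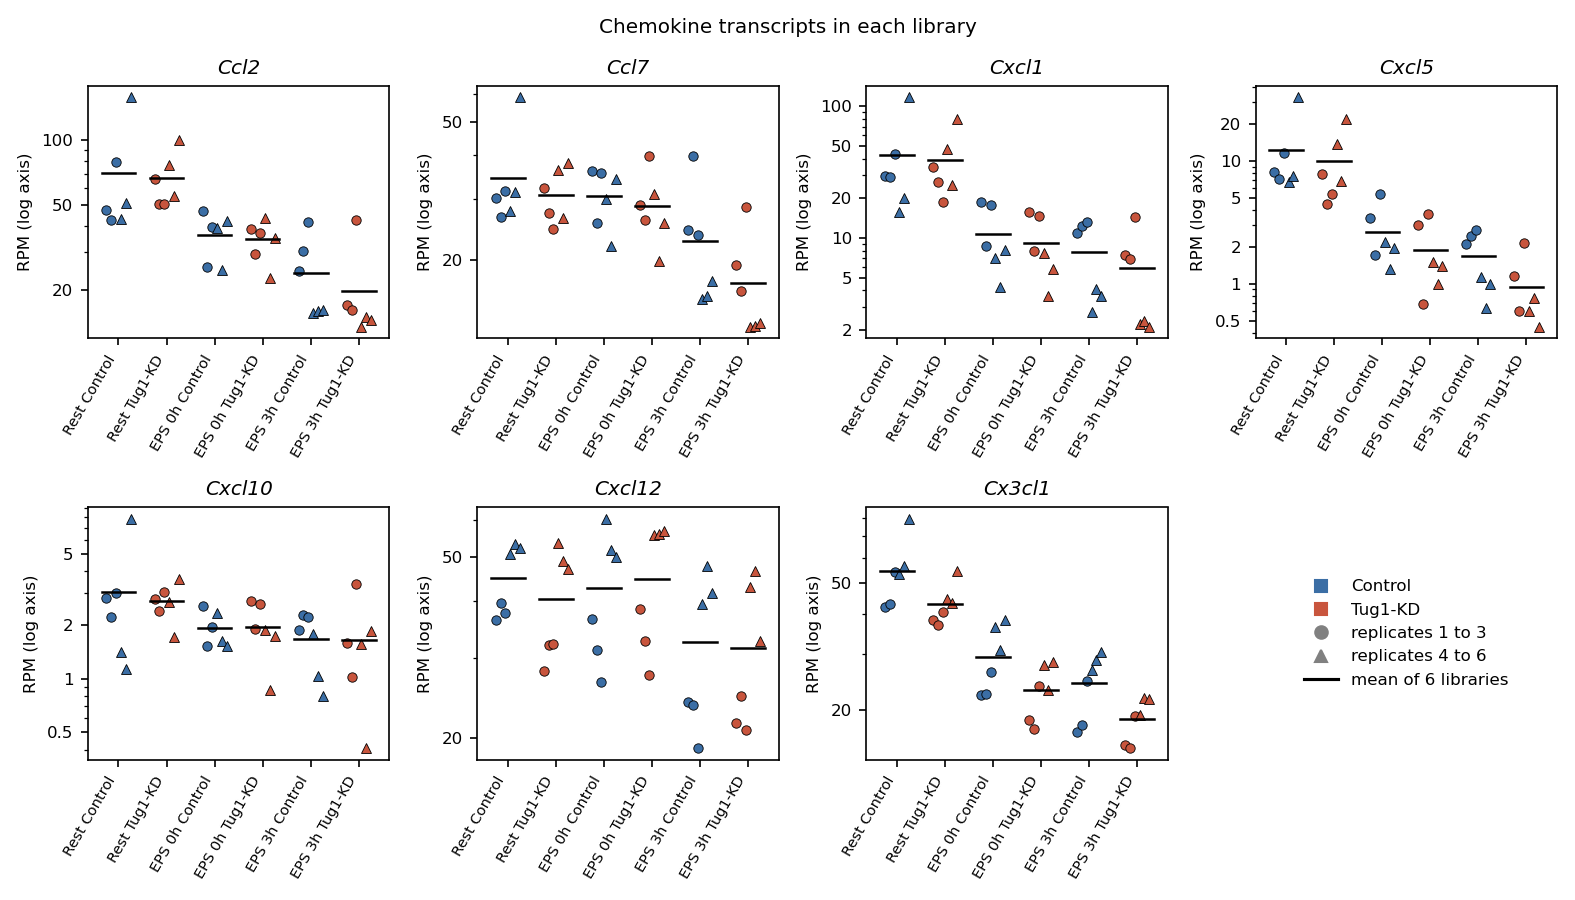
RPM (log axis) of each chemokine gene in each of the 36 libraries, blue for Control and red for Tug1-KD, circles for replicates 1 to 3 and triangles for replicates 4 to 6, with a line at the mean of 6 libraries. *Cxcl1* and *Cxcl5* step down from Rest to EPS 0h, *Cx3cl1* does so with little spread, and Rest Control replicate 6 is the highest point of the panels of *Ccl2*, *Ccl7*, *Cxcl1*, *Cxcl5*, *Cxcl10* and *Cx3cl1*.

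Of the monocyte attractants, *Ccl2* was called lower at both times and *Ccl7* only at EPS 3h. The difference between these genes was not tested. In Rest Control libraries *Ccl2* was at 42.3, 49.2 and 159 RPM (lowest, median and highest of 6). It was at 24.7, 39.3 and 47.0 RPM at EPS 0h and at 15.7, 20.4 and 41.5 RPM at EPS 3h. The 6 EPS 3h libraries all lay below the lowest Rest library, and at EPS 0h 5 of 6 did. *Ccl2* was thus 1.94-fold lower at EPS 0h (log2FC -0.95 ± 0.30 SE, FDR = 0.0109) and 2.93-fold lower at EPS 3h (log2FC -1.55 ± 0.31 SE, FDR = 6.03e-05). Without Rest Control replicate 6 the EPS 0h difference was -0.54 (FDR = 0.115) and no longer passed, while that at EPS 3h was -1.13 (FDR = 0.000702). The decrease was smaller within replicates 1 to 3, with a log2FC of -0.60 (FDR = 0.134) at EPS 0h and -0.79 (FDR = 0.0458) at EPS 3h, than within replicates 4 to 6, with -1.26 (FDR = 0.0174) and -2.40 (FDR = 9.16e-05), a gap that was not tested. Tug1-KD myotubes started at 50.5, 60.8 and 100.2 RPM, passed through 22.9, 36.1 and 43.7 RPM at EPS 0h and reached 13.5, 15.5 and 42.3 RPM at EPS 3h. Neither time point overlapped Rest there, with *Ccl2* lower by 1.93-fold (log2FC -0.95 ± 0.30 SE, FDR = 0.00979) and 3.38-fold (log2FC -1.76 ± 0.31 SE, FDR = 1.11e-05). Within the sets the log2FC was -0.66 (FDR = 0.0862) and -1.14 (FDR = 0.00627) in replicates 1 to 3, and -1.19 (FDR = 0.0237) and -2.43 (FDR = 9.88e-05) in replicates 4 to 6.

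*Ccl7*, its neighbour on chromosome 11, passed the test only at EPS 3h. Rest Control libraries were at 26.6, 30.8 and 58.7 RPM, EPS 0h Control libraries at 22.0, 32.2 and 36.2 RPM and EPS 3h Control libraries at 15.5, 20.6 and 39.8 RPM. The ranges overlapped at both times, although 5 of 6 EPS 3h libraries lay below the lowest Rest library. The log2FC was -0.17 (FDR = 0.564) at EPS 0h, or 0.05 (FDR = 0.865) without Rest Control replicate 6, and *Ccl7* was 1.51-fold lower at EPS 3h (log2FC -0.60 ± 0.22 SE, FDR = 0.0210). That call rested on single libraries. It was lost without Rest Control replicate 6 at -0.38 (FDR = 0.131), without EPS 3h Control replicate 4 at -0.51 (FDR = 0.0587), replicate 5 at -0.51 (FDR = 0.0572) or replicate 6 at -0.53 (FDR = 0.0527), and it was carried by replicates 4 to 6, where the log2FC was -1.27 (FDR = 0.000156) against 0.01 (FDR = 0.978) in replicates 1 to 3. Tug1-KD libraries were at 24.7, 29.7 and 38.1 RPM at Rest, 19.9, 27.5 and 40.0 RPM at EPS 0h and 12.9, 14.8 and 28.4 RPM at EPS 3h. There the log2FC at EPS 0h was -0.11 (FDR = 0.698), and at EPS 3h *Ccl7* was 1.79-fold lower (log2FC -0.84 ± 0.22 SE, FDR = 0.00161), with -0.37 (FDR = 0.161) in replicates 1 to 3 and -1.37 (FDR = 0.000104) in replicates 4 to 6.

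The neutrophil attractants *Cxcl1* and *Cxcl5* fell most. *Cxcl1* was at 15.8, 29.2 and 117 RPM in Rest Control libraries, 4.25, 8.33 and 18.6 RPM at EPS 0h and 2.73, 7.48 and 13.3 RPM at EPS 3h. Every EPS 3h library was below every Rest library, and 4 of 6 were at EPS 0h. The gene was 3.97-fold lower at EPS 0h (log2FC -1.99 ± 0.50 SE, FDR = 0.00181) and 5.47-fold lower at EPS 3h (log2FC -2.45 ± 0.52 SE, FDR = 0.000141). Without Rest Control replicate 6 these differences shrank to -1.37 (FDR = 0.0207) and -1.83 (FDR = 0.00173) and still passed. The size also differed between the sets, with a log2FC of -1.19 (FDR = 0.00617) at EPS 0h and -1.46 (FDR = 0.000979) at EPS 3h in replicates 1 to 3, and of -2.98 (FDR = 0.00291) and -3.87 (FDR = 0.000326) in replicates 4 to 6. In Tug1-KD myotubes *Cxcl1* lay at 18.6, 30.6 and 80.3 RPM in Rest, 3.63, 7.84 and 15.7 RPM in EPS 0h and 2.12, 4.61 and 14.5 RPM in EPS 3h libraries, without overlap with Rest at either time. It was lower by 4.23-fold at EPS 0h (log2FC -2.08 ± 0.51 SE, FDR = 0.00106) and 6.57-fold at EPS 3h (log2FC -2.72 ± 0.53 SE, FDR = 4.64e-05). In replicates 1 to 3 these changes were -1.05 (FDR = 0.010) and -1.45 (FDR = 0.00109) on the log2 scale, and in replicates 4 to 6 -3.16 (FDR = 0.00204) and -4.51 (FDR = 0.000170).

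*Cxcl5* lay lower in level and changed in the same way. Its Rest Control libraries were at 6.70, 7.82 and 32.8 RPM, those at EPS 0h at 1.31, 2.05 and 5.36 RPM and those at EPS 3h at 0.637, 1.62 and 2.73 RPM. Neither stimulated group overlapped Rest. The decrease was 4.64-fold at EPS 0h (log2FC -2.21 ± 0.45 SE, FDR = 0.000178) and 7.45-fold at EPS 3h (log2FC -2.90 ± 0.47 SE, FDR = 3.75e-06), and without Rest Control replicate 6 the log2FC was -1.62 (FDR = 0.00217) and -2.31 (FDR = 3.38e-05). In replicates 1 to 3 it was -1.35 (FDR = 0.0187) and -1.86 (FDR = 0.00231), and in replicates 4 to 6 -3.11 (FDR = 0.000264) and -4.08 (FDR = 1.74e-05). Tug1-KD libraries held 4.48, 7.33 and 21.8 RPM at Rest, 0.689, 1.45 and 3.72 RPM at EPS 0h and 0.447, 0.685 and 2.13 RPM at EPS 3h, again without overlap with Rest. At EPS 3h these levels rested on 8 to 37 reads a library. The decrease there was 5.34-fold (log2FC -2.42 ± 0.47 SE, FDR = 6.56e-05) and 10.54-fold (log2FC -3.40 ± 0.51 SE, FDR = 6.76e-07), the latter the greatest among the 7 genes in the 4 comparisons with Rest. Replicates 1 to 3 gave -1.22 (FDR = 0.0294) and -2.16 (FDR = 0.00124), and replicates 4 to 6 gave -3.45 (FDR = 0.000136) and -4.53 (FDR = 1.48e-05).

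**Figure D3:**
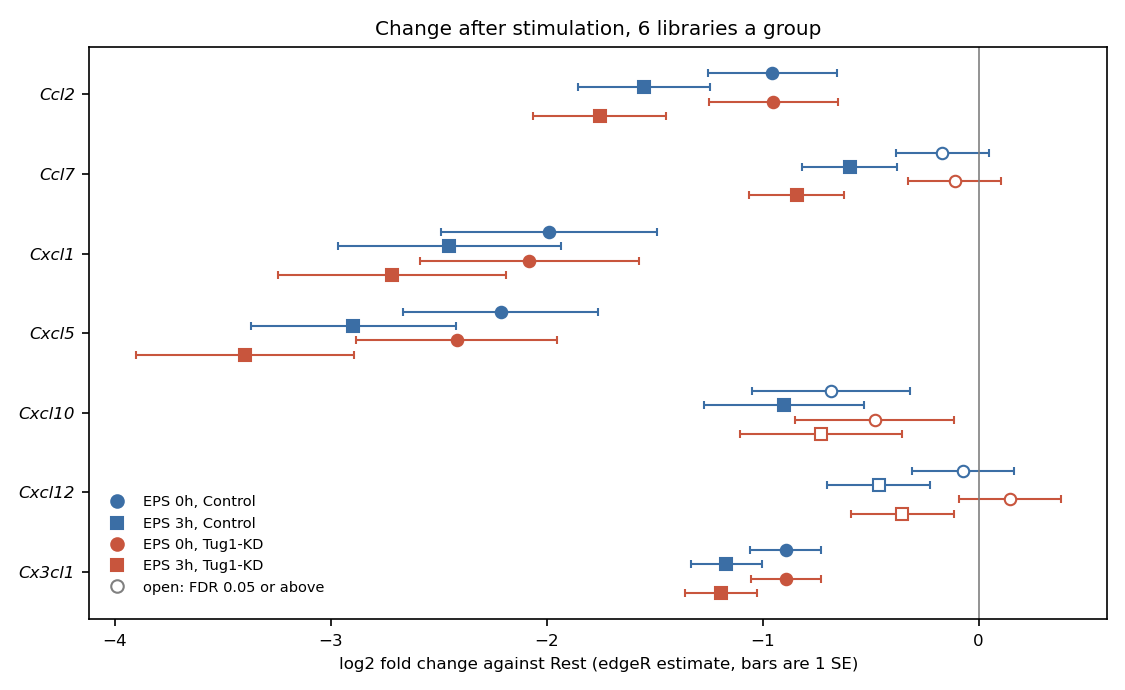
log2 fold change of each chemokine gene against Rest at EPS 0h (circles) and EPS 3h (squares) in Control (blue) and Tug1-KD (red) myotubes, with bars of 1 SE and open symbols where the FDR was 0.05 or above. *Cxcl1* and *Cxcl5* lie farthest left, *Cx3cl1* has the shortest bars, and *Cxcl12* has an open symbol throughout.

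*Cxcl10*, the interferon-inducible T cell attractant, was the least abundant per length over all 36 libraries, although *Cxcl5* was below it in EPS 3h Tug1-KD myotubes, and held 8 to 184 reads a library. Its Rest Control libraries were at 1.13, 2.52 and 7.82 RPM, EPS 0h libraries at 1.52, 1.79 and 2.54 RPM and EPS 3h libraries at 0.797, 1.83 and 2.26 RPM. The groups overlapped. The log2FC at EPS 0h was -0.68 (FDR = 0.138), or -0.14 (FDR = 0.771) without Rest Control replicate 6, and at EPS 3h the gene was 1.87-fold lower (log2FC -0.90 ± 0.37 SE, FDR = 0.0405). This call was lost when any of 6 libraries was left out, at -0.36 (FDR = 0.394) without Rest Control replicate 6 and -0.91 (FDR = 0.0530) without Rest Control replicate 3, and at -0.94 (FDR = 0.05003), -0.92 (FDR = 0.0521), -0.79 (FDR = 0.0872) and -0.75 (FDR = 0.0995) without EPS 3h Control replicates 1, 4, 5 and 6. It had a log2FC of -0.32 (FDR = 0.422) in replicates 1 to 3 and -1.52 (FDR = 0.0404) in replicates 4 to 6. In Tug1-KD libraries it was at 1.72, 2.74 and 3.62 RPM at Rest, 0.863, 1.88 and 2.73 RPM at EPS 0h and 0.409, 1.58 and 3.39 RPM at EPS 3h. Neither difference from Rest passed there, at -0.48 (FDR = 0.292) and -0.73 (FDR = 0.101), although without EPS 3h Tug1-KD replicate 3 the latter was -1.08 (FDR = 0.0191).

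*Cxcl12*, the homeostatic CXCR4 ligand, passed the test at neither time when all libraries were pooled. Control libraries held 36.4, 45.1 and 53.3 RPM at Rest, 26.6, 43.2 and 60.5 RPM at EPS 0h and 19.0, 31.7 and 47.6 RPM at EPS 3h. Much of this spread lay between the replicate sets, since in each of the 6 groups every library of replicates 1 to 3 was below every library of replicates 4 to 6. The log2FC was -0.07 (FDR = 0.832) at EPS 0h and -0.46 (FDR = 0.101) at EPS 3h, and it was called lower at EPS 3h without EPS 3h Control replicate 5, at -0.60 (FDR = 0.0392). Without Rest Control replicate 6 these were -0.03 (FDR = 0.949) and -0.42 (FDR = 0.170). The replicate number was taken to pair these libraries. With the number as a block *Cxcl12* was lower at EPS 3h (log2FC -0.52 ± 0.09 SE, FDR = 8.19e-06), as were all 7 chemokine genes, against 31.6% of all genes called lower in that fit. It was lower in 6 of 6 libraries than in the Rest library of the same number, by 1.12- to 1.98-fold. Within replicates 1 to 3 the log2FC was -0.75 (FDR = 0.000312) and within replicates 4 to 6 -0.28 (FDR = 0.0512). Tug1-KD libraries held 28.2, 39.5 and 53.6 RPM at Rest, 27.6, 47.0 and 56.9 RPM at EPS 0h and 20.9, 28.7 and 46.5 RPM at EPS 3h, with log2FC of 0.14 (FDR = 0.641) and -0.35 (FDR = 0.217). The decrease at EPS 3h was called there within each set, at -0.44 (FDR = 0.0156) in replicates 1 to 3 and -0.29 (FDR = 0.0462) in replicates 4 to 6, and with the replicate number as a block, at -0.38 (FDR = 0.000597).

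*Cx3cl1*, the membrane-bound fractalkine, fell by like factors in both LNA groups and both replicate sets. Rest Control libraries were at 42.1, 53.8 and 79.4 RPM, EPS 0h libraries at 22.3, 28.5 and 38.4 RPM and EPS 3h libraries at 17.1, 25.8 and 30.5 RPM. Neither stimulated group overlapped Rest. The gene was 1.86-fold lower at EPS 0h (log2FC -0.89 ± 0.16 SE, FDR = 4.04e-05) and 2.25-fold lower at EPS 3h (log2FC -1.17 ± 0.16 SE, FDR = 2.42e-07). The values within the sets lay close together, at -0.97 (FDR = 0.000100) and -1.20 (FDR = 3.90e-06) in replicates 1 to 3 and -0.84 (FDR = 0.000148) and -1.14 (FDR = 2.16e-06) in replicates 4 to 6, and without Rest Control replicate 6 the log2FC was -0.76 (FDR = 0.000277) and -1.03 (FDR = 1.66e-06). The Rest Tug1-KD libraries had 36.9, 42.0 and 54.5 RPM, followed by 17.5, 23.4 and 28.4 RPM at EPS 0h and 15.2, 19.2 and 21.9 RPM at EPS 3h. The decreases there were 1.86-fold (log2FC -0.89 ± 0.16 SE, FDR = 3.44e-05) and 2.29-fold (log2FC -1.19 ± 0.17 SE, FDR = 1.77e-07), again without overlap with Rest, and at EPS 3h the sets gave -1.20 (FDR = 3.63e-06) and -1.18 (FDR = 1.76e-06).

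**Figure D4:**
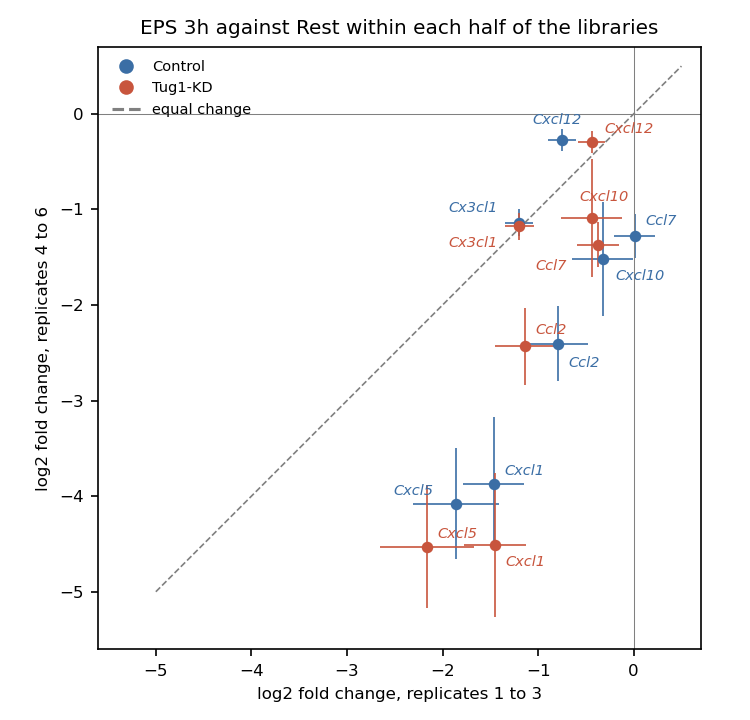
log2 fold change from Rest to EPS 3h within replicates 1 to 3 (x axis) and within replicates 4 to 6 (y axis), for Control (blue) and Tug1-KD (red) myotubes, with bars of 1 SE and a dashed line of equal change. *Cx3cl1* lies on the line, whereas *Cxcl1*, *Cxcl5*, *Ccl2*, *Ccl7* and *Cxcl10* lie below it with larger decreases in replicates 4 to 6, and *Cxcl12* lies above it.

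Between EPS 0h and EPS 3h, 0 of 7 genes passed the test in control myotubes, against 6.88% of all genes called lower. DESeq2 and limma-voom also called 0, and 0 of 7 had an unadjusted p under 0.05 in the edgeR test. All 7 estimates were negative, from -0.22 (FDR = 0.800) for *Cxcl10* to -0.68 (FDR = 0.411) for *Cxcl5*. *Ccl7* was called there without EPS 3h Control replicate 2, at -0.66 (FDR = 0.0284). In Tug1-KD myotubes 1 of 7 passed, against 7.13% of all genes called lower, and this was *Ccl7* (log2FC -0.73 ± 0.22 SE, FDR = 0.0186). The call was lost without EPS 0h Tug1-KD replicate 3, at -0.61 (FDR = 0.0663), or EPS 3h Tug1-KD replicate 4, at -0.66 (FDR = 0.0541). *Ccl2* had a log2FC of -0.81 (FDR = 0.0697) and was called when Rest Control replicate 6, EPS 0h Tug1-KD replicate 5 or EPS 3h Tug1-KD replicate 3 was left out, at -0.81 (FDR = 0.0309), -0.90 (FDR = 0.0494) and -1.18 (FDR = 0.00485). With the replicate number as a block, which was taken to pair these libraries, 4 of 7 were called lower from EPS 0h to EPS 3h in Tug1-KD myotubes, against 12.3% of all genes. Beside *Ccl7* these were *Ccl2* at -0.85 (FDR = 0.0151), *Cxcl12* at -0.51 (FDR = 6.80e-05) and *Cx3cl1* at -0.29 (FDR = 0.00435).

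Whether *Tug1* KD altered the chemokines was asked at each time point. At Rest 0 of 7 genes differed between Tug1-KD and control myotubes, against 10.0% of all genes called in either direction, at EPS 0h 0 of 7 against 14.3%, and at EPS 3h 0 of 7 against 11.5%. DESeq2 and limma-voom also called 0 at each time. In the edgeR test 1 of 7 had an unadjusted p under 0.05 at each time point, and this was *Cx3cl1*. Its 6 Tug1-KD libraries were each below the control library of the same number at Rest, at EPS 0h and at EPS 3h, by ratios of 0.687 to 0.914, 0.738 to 0.904 and 0.710 to 0.912. The ranges of the groups overlapped at each time. The log2FC was -0.35 (FDR = 0.196) at Rest, -0.34 (FDR = 0.167) at EPS 0h and -0.37 (FDR = 0.156) at EPS 3h, none of them called. At EPS 0h and EPS 3h the replicate number was taken to pair the libraries. With the number as a block *Cx3cl1* was called lower in Tug1-KD myotubes, by log2FC -0.34 ± 0.08 SE (FDR = 0.000966) at EPS 0h and -0.35 ± 0.08 SE (FDR = 0.000922) at EPS 3h. It was the only 1 of the 7 called in those fits, which called 24.3% and 20.6% of all genes. Within replicates 1 to 3 it had a log2FC of -0.23 (FDR = 0.466) and -0.26 (FDR = 0.359), and within replicates 4 to 6 at -0.42 (FDR = 0.0469) and -0.45 (FDR = 0.0481). With a block for the replicate set instead, edgeR called *Cx3cl1* lower at all 3 time points. The log2FC was -0.34 (FDR = 0.0185) at Rest, -0.33 (FDR = 0.0177) at EPS 0h and -0.36 (FDR = 0.0146) at EPS 3h. Without Rest Control replicate 6 and without a block, the value at Rest was -0.21 (FDR = 0.537).

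**Figure D5:**
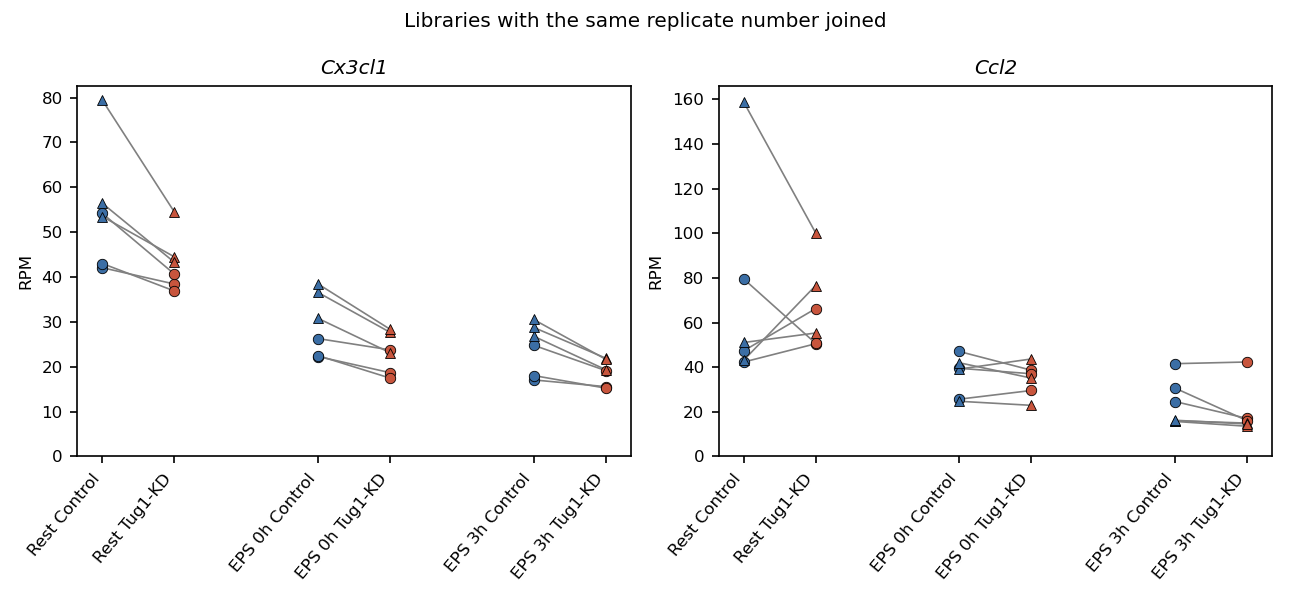
RPM of *Cx3cl1* (left) and *Ccl2* (right) in Control (blue) and Tug1-KD (red) libraries at Rest, EPS 0h and EPS 3h, with lines joining libraries of the same replicate number, circles for replicates 1 to 3 and triangles for replicates 4 to 6. All 18 lines of *Cx3cl1* go down from Control to Tug1-KD, whereas those of *Ccl2* go both ways in each condition.

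The other 6 genes were called at no time, with or without the block. At Rest their log2FC lay between -0.29 for *Cxcl5* and -0.08 for *Ccl2*, all with an FDR of at least 0.774. Without Rest Control replicate 6 the sign turned for 5 of them, to 0.34 (FDR = 0.570) for *Ccl2*, 0.06 (FDR = 0.924) for *Ccl7*, 0.49 (FDR = 0.653) for *Cxcl1*, 0.30 (FDR = 0.784) for *Cxcl5* and 0.36 (FDR = 0.641) for *Cxcl10*, so no direction can be read for these genes at Rest. *Cxcl5* was below the control library of the same number in 5 of 6 Tug1-KD libraries at Rest, 6 of 6 at EPS 0h and 5 of 6 at EPS 3h, but spread widely between libraries, at log2FC -0.50 ± 0.48 SE, FDR = 0.562 at EPS 0h and log2FC -0.79 ± 0.54 SE, FDR = 0.408 at EPS 3h. *Ccl7* was lower in 5 of 6 at EPS 3h, at -0.40 (FDR = 0.280). The difference between the responses of Tug1-KD and control myotubes was tested as an interaction. It was called for 0 of 7 genes at EPS 0h, against 0.0% of all genes, and for 0 of 7 at EPS 3h, against 0.00715% of all genes, with 0 of 14 edgeR tests at an unadjusted p under 0.05 and 0 calls by DESeq2 or limma-voom.

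The wider chemokine system was read from lists of related genes, counted by how many of their tested members were called in each direction. In control myotubes 20.5% of all genes were called higher at EPS 0h and 26.1% at EPS 3h, beside the shares called lower above. Values in parentheses after a list gene are its log2FC in the comparison named. Of 30 other chemokine ligands 7 were detected well enough to be tested. The remaining 23 had a mean under 1 RPM, among them the neutrophil attractants *Cxcl2* (mean 0.216 RPM) and *Cxcl3* (0.0556 RPM), which are known to answer to the same signals as *Cxcl1*. At EPS 3h 1 of 7 was higher, *Ccl25* (0.54 ± 0.17 SE, FDR = 0.00928), a ligand of CCR9, and 1 of 7 was lower, *Cxcl16* (-1.19 ± 0.30 SE, FDR = 0.00129), a second membrane-bound chemokine beside *Cx3cl1*. *Cxcl16* was at 3.83 to 11.98 RPM in Rest Control and 1.05 to 5.68 RPM in EPS 3h Control libraries. The 11.98 RPM was that of Rest Control replicate 6, and the rest of its group held at most 5.11 RPM. *Ccl8* had a log2FC of -0.37 ± 0.17 SE, FDR = 0.0647, and *Ccl11*, which attracts eosinophils, was higher at EPS 0h (0.85 ± 0.29 SE, FDR = 0.0190) and at 0.40 ± 0.29 SE, FDR = 0.262 at EPS 3h.

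Among 24 chemokine receptors 6 were tested, and 5 of 6 were lower and 1 of 6 higher at EPS 3h in control myotubes, with 4 lower and 1 higher directly after stimulation. The receptors of *Cxcl12* led the list in level. *Cxcr4* was at 37.2 to 43.0 RPM in Rest Control, 18.7 to 30.3 RPM in EPS 0h Control and 10.3 to 17.5 RPM in EPS 3h Control libraries, which did not overlap Rest (-1.57 ± 0.12 SE, FDR = 6.51e-13). *Ackr3*, the scavenging receptor, was at 47.0 to 67.4 RPM at Rest and 24.8 to 32.3 RPM at EPS 3h (-0.88 ± 0.09 SE, FDR = 4.98e-10). *Cx3cr1*, the receptor of *Cx3cl1*, was under 1 RPM in every Rest library and passed the filter only through the stimulated groups, so that a tested difference from Rest had to be a higher level. It ranged from 0.0425 to 0.314 RPM in Rest Control libraries, from 0.780 to 3.15 RPM at EPS 0h (3.55 ± 0.38 SE, FDR = 3.11e-09) and from 1.67 to 2.55 RPM at EPS 3h (3.73 ± 0.38 SE, FDR = 2.64e-10). At Rest these are at most a few reads a library. *Xcr1* (-1.38 ± 0.18 SE, FDR = 9.74e-08) and *Cxcr6* (-1.01 ± 0.28 SE, FDR = 0.00257), the receptor of *Cxcl16*, were lower at EPS 3h at about 1 RPM. The receptors of the inflammatory attractants, *Ccr2*, *Cxcr2* and *Cxcr3*, did not pass the filter, with means of 0.0777, 0.383 and 0.0105 RPM.

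Upstream, 17 of 23 inducers and their receptors were tested, and 10 of 17 were lower and 3 of 17 higher at EPS 3h in control myotubes, with 6 lower and 4 higher at EPS 0h. Receptors of tumour necrosis factor were lower at EPS 3h, *Tnfrsf1b* with 8.75 to 24.0 RPM against 34.4 to 90.8 RPM at Rest (-1.89 ± 0.28 SE, FDR = 6.88e-07) and *Tnfrsf1a* less so (-0.66 ± 0.15 SE, FDR = 0.000385). So was *Tlr2*, a receptor of bacterial lipoproteins (-1.65 ± 0.26 SE, FDR = 2.16e-06). Rest Control replicate 6 held 90.8 RPM of *Tnfrsf1b* and 43.2 RPM of *Tlr2*. The rest of its group held at most 67.6 and 21.4 RPM. *Tlr4*, the lipopolysaccharide receptor (0.69 ± 0.18 SE, FDR = 0.00131), and *Il1r1*, the interleukin-1 receptor (0.84 ± 0.13 SE, FDR = 9.33e-07), were higher. *Ifngr2*, a chain of the interferon gamma receptor, was lower (-0.34 ± 0.06 SE, FDR = 2.91e-05), and *Il6st*, the shared signalling chain of the interleukin-6 family and the most abundant of the list, had a log2FC of 0.07 ± 0.11 SE, FDR = 0.622.

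All 28 transcription factors and regulators of chemokine genes were tested, and 17 of 28 were lower and 8 of 28 higher at EPS 3h in control myotubes, with 10 lower and 6 higher at EPS 0h. *Irf1*, which drives interferon-responsive genes, was at 57.0 to 101 RPM at Rest and 8.66 to 16.7 RPM at EPS 3h (-2.52 ± 0.15 SE, FDR = 5.77e-16). *Nfkbia*, which encodes the NF-kB inhibitor IκBα and is itself an NF-kB target, was at 60.8 to 110.1 RPM at Rest and 13.3 to 22.7 RPM at EPS 3h (-2.03 ± 0.13 SE, FDR = 7.04e-15). The highest Rest value of *Irf1* and *Nfkbia* was that of Rest Control replicate 6, with at most 65.8 and 76.7 RPM in the rest of its group. *Bcl3*, an atypical IκB protein (-1.89 ± 0.22 SE, FDR = 7.28e-09), and *Socs1*, an inhibitor of cytokine signalling (-1.21 ± 0.30 SE, FDR = 0.000846), were lower as well, as was *Stat3* by a small amount (-0.21 ± 0.09 SE, FDR = 0.0413). Higher at EPS 3h were *Nfkb1*, which encodes the NF-kB p105 precursor (0.51 ± 0.13 SE, FDR = 0.000923), the AP-1 subunit *Jun* (1.01 ± 0.10 SE, FDR = 4.24e-10) and *Hif1a* (0.59 ± 0.15 SE, FDR = 0.00138). The list therefore moved in both directions, with a median log2FC of -0.43 against -0.02 over all genes.

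Of 8 factors that govern the decay of chemokine mRNA, 3 were higher and 2 lower at EPS 3h in control myotubes, and likewise 3 and 2 at EPS 0h. *Rc3h1* (Roquin-1), which destabilises inflammatory mRNAs, was at 28.0 to 51.8 RPM in Rest Control, 90.5 to 159.7 RPM in EPS 0h Control and 127 to 269.7 RPM in EPS 3h Control libraries (2.29 ± 0.20 SE, FDR = 1.08e-11), without overlap with Rest. *Zfp36l1*, which binds adenine- and uridine-rich elements, was higher (0.60 ± 0.14 SE, FDR = 0.000539), and its relative *Zfp36l2* had a log2FC of -0.41 ± 0.29 SE, FDR = 0.237. *Elavl1* (HuR), which stabilises such mRNAs, was higher (0.99 ± 0.11 SE, FDR = 7.04e-10), while *Zc3h12a* (Regnase-1), an endonuclease of inflammatory mRNAs, was lower (-1.92 ± 0.19 SE, FDR = 2.03e-10). At Rest *Zc3h12a* was at 56.6 RPM in Rest Control replicate 6, against at most 30.7 RPM in the rest of its group. Among 13 tested genes that hold or process chemokines at the cell surface, 3 were lower and 2 higher at EPS 3h. These included *Mmp9* (2.82 ± 0.30 SE, FDR = 9.16e-10) and *Timp3* (0.96 ± 0.11 SE, FDR = 3.26e-09), which were higher, and *Sdc1* (-1.20 ± 0.22 SE, FDR = 2.84e-05), *Mmp14* (-0.94 ± 0.20 SE, FDR = 0.000155) and *Gpc1* (-0.44 ± 0.19 SE, FDR = 0.0478), which were lower. *Timp2* had a log2FC of -0.24 ± 0.13 SE, FDR = 0.117 and *Sdc2* at 0.04 ± 0.11 SE, FDR = 0.751.

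The same lists were read in Tug1-KD myotubes. At EPS 3h 5 of 6 receptors, 10 of 17 inducers and their receptors, 13 of 28 transcription factors and regulators, 2 of 8 decay factors and 2 of 7 other ligands were lower than at Rest, beside the 25.9% of all genes given above. Of the same genes 1 of 6 receptors, 4 of 17 inducers, 6 of 28 factors, 3 of 8 decay factors and 1 of 7 ligands were higher, and of 13 genes of surface processing 3 were lower and 2 higher, beside 26.2% of all genes called higher. Between Tug1-KD and control myotubes few list members differed. *Il1b*, which encodes interleukin-1 beta, was higher in Tug1-KD myotubes at Rest (0.67 ± 0.17 SE, FDR = 0.00587) and at EPS 0h (0.87 ± 0.17 SE, FDR = 0.000443), and so was *Il1r1* (0.39 ± 0.13 SE, FDR = 0.0437 and 0.38 ± 0.13 SE, FDR = 0.0376). *Cebpd*, a transcription factor of the acute phase response, was lower at Rest (-0.63 ± 0.20 SE, FDR = 0.0356), EPS 0h (-0.78 ± 0.20 SE, FDR = 0.00631) and EPS 3h (-0.64 ± 0.20 SE, FDR = 0.0327). *Myd88*, the adaptor of Toll-like and interleukin-1 receptors, was lower at EPS 0h (-0.42 ± 0.15 SE, FDR = 0.0467) and EPS 3h (-0.56 ± 0.15 SE, FDR = 0.00905). Over the 6 lists, of 79 genes tested 3 differed at Rest, 10 at EPS 0h and 3 at EPS 3h, or 3.80%, 12.7% and 3.80% beside 10.0%, 14.3% and 11.5% of all genes. At EPS 0h the others included *Cxcr6*, which was higher (1.84 ± 0.29 SE, FDR = 2.35e-05), and *Ccl8* (-0.54 ± 0.17 SE, FDR = 0.0290) and the decay factor *Zfp36* (-0.60 ± 0.14 SE, FDR = 0.00239), which were lower.

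Markers of other cells were measured in the same libraries. Beside the counts below, 25.9% of all genes were called lower and 26.1% higher at EPS 3h in control myotubes. At EPS 0h these shares were 18.4% and 20.5%, and at EPS 3h in Tug1-KD myotubes 25.9% and 26.2%. The 14 myotube markers summed to 17556 to 22089 RPM in Rest Control and 18104 to 23464 RPM in EPS 3h Control libraries, and 0 of 14 changed at either time in control myotubes, while 4 of 14 were lower and 1 of 14 higher at EPS 3h in Tug1-KD myotubes. The 12 leukocyte markers summed to 17.9 to 31.8 RPM in Rest Control and 16.9 to 28.7 RPM in EPS 3h Control libraries. *Ptprc*, which marks all leukocytes, was at 0 to 0.0858 RPM in Rest Control and 0.227 to 1.16 RPM in EPS 3h Control libraries, and *Cd3e* and *Adgre1* were at 0 in 23 and 27 of 36 libraries. Only 3 of the 12 were tested. *Cd14* (-1.97 ± 0.29 SE, FDR = 5.00e-07) and *Cd68* (-0.69 ± 0.18 SE, FDR = 0.00137) were lower at EPS 3h, and *Ly6c2* had a log2FC of 0.30 ± 0.25 SE, FDR = 0.322. Of 6 fibroblast markers 4 were tested, with 3 of 4 lower at EPS 3h and a sum of 2426 to 3467 RPM in Rest and 1841 to 2502 RPM in EPS 3h libraries, and of 6 endothelial markers 4 were tested, with 4 of 4 higher and a sum of 2.40 to 3.42 and 7.25 to 18.4 RPM. The endothelial genes were *Kdr* (4.67 ± 0.40 SE, FDR = 4.89e-12), *Pecam1* (2.28 ± 0.36 SE, FDR = 2.33e-06), *Tek* (1.68 ± 0.18 SE, FDR = 5.44e-10) and *Vwf* (1.64 ± 0.26 SE, FDR = 1.65e-06), each at a mean of at most 4.49 RPM at EPS 3h, and *Kdr* (0.0523 to 0.416 RPM) and *Pecam1* (0.209 to 0.644 RPM) were under 1 RPM in every Rest Control library and passed the filter only through the stimulated groups, so the count of 4 of 4 is shaped by the filter. *Cdh5* was not tested and *Tie1* was at 0 in 31 of 36 libraries. The fibroblast genes *Pdgfra* (-0.95 ± 0.15 SE, FDR = 1.24e-06), *Col1a1* (-0.60 ± 0.11 SE, FDR = 3.51e-05) and *Col3a1* (-0.42 ± 0.14 SE, FDR = 0.0103) were lower, and *Dcn* had a log2FC of 0.10 ± 0.22 SE, FDR = 0.739. The 8 markers of unfused or cycling myoblasts summed to 196 to 231 RPM at Rest and 179 to 241 RPM at EPS 3h, with 1 higher and 2 lower. At EPS 0h they summed to 262 to 299 RPM, above every Rest Control library, with 4 of 8 higher and 1 lower. The part of these markers in the chemokine differences was not tested.

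The chemokine genes also varied together between libraries, as a description of 36 libraries that share conditions, sets and depth. On log2 RPM, *Cxcl1* and *Cxcl5* had a Pearson r of 0.95 (Spearman 0.95), *Ccl2* and *Cxcl1* 0.93 (0.92), and *Ccl2* and *Cxcl5* 0.92 (0.92). After each library was centred on its group and set, these were 0.89, 0.92 and 0.83. The chromosomal neighbours *Ccl2* and *Ccl7* had an r of 0.87 (0.77 by rank), and 0.81 after centring. *Cxcl12* was apart from the others except *Cx3cl1*, with an r from -0.15 (*Cxcl10*) to 0.18 (*Ccl2*). Its r to *Cx3cl1* was 0.55 (0.55 by rank), and -0.40 after centring. Among genes whose mean reached 5 RPM, those most like *Ccl2* were *Nfkbie* (r = 0.92, Spearman 0.92), *Bcl3* (0.88, 0.90) and *Zc3h12a* (0.86, 0.81). *Nfkbie* (0.90, 0.85), *Gclc* (0.89, 0.86) and *Bcl3* (0.89, 0.85) were most like *Cxcl5*, and *Fam111a* (0.88, 0.90), *Gclc* (0.87, 0.86) and *Zfp57* (0.86, 0.89) most like *Cxcl1*. For *Ccl7* they were *Fas* (0.84, 0.82), *Zfp639* (0.79, 0.72) and *Tlr2* (0.78, 0.72), and for *Cxcl10*, the least alike of all, *Cep41* (0.64, 0.66), *Nod2* (0.64, 0.43) and *Lars* (0.62, 0.77). *Cx3cl1* followed *Fam20c* (0.97, 0.97), *Tnfaip2* (0.96, 0.94) and *Angptl2* (0.95, 0.97) most closely. *Tbc1d2b* (0.91, 0.90), *Ptpn9* (0.89, 0.90) and *Ski* (0.89, 0.88) were most like *Cxcl12*, and after centring on group and set these values came to 0.35, -0.15 and -0.35. For the first-named partner of each other gene the same centring left 0.91 for *Ccl2* and 0.82 for *Cxcl5* (both *Nfkbie*). It left 0.70 for *Ccl7* (*Fas*), 0.66 for *Cx3cl1* (*Fam20c*), 0.58 for *Cxcl10* (*Cep41*) and 0.46 for *Cxcl1* (*Fam111a*).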

How the data were processed

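Poly-A selected RNA from 36 wells of C2C12 myotubes was sequenced as strand-specific libraries. Per the study's methods, the authors inspected reads with FastQC 0.11.7, trimmed them with fastp 0.14.1, aligned them to GRCm39 with the Ensembl 104 annotation by STAR in 2-pass mode, and deposited raw counts of reads per gene. The tool that counted them and its strand setting are not given in the sources used here. The deposited counts were used unchanged: the table held the same counts as the 36 files of single libraries. The 1492 rows without a gene name, with 0.0327% of counts, were treated like all others in the filter and tests. They were left out only of the search for genes most like each chemokine gene. Libraries of a group differed beyond counting noise in all 90 pairs compared.

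Genes reaching 1 RPM in 12 or more libraries entered the tests (13995 of 55416). All 6 groups were fitted together by edgeR 4.0.16 in R 4.3.3 (TMM factors, robust quasi-likelihood test), with Benjamini-Hochberg FDR over all genes tested and a threshold of 0.05. RPM are TMM-scaled, and log2 values for correlations carried a pseudocount of 0.5 RPM. An SE stands beside a log2FC on the log2 scale. On simulated counts for EPS 3h against Rest in control myotubes (13995 genes, 200 of them changed by a log2FC of 1), edgeR recovered 88% with 4 false calls. Alternatives were DESeq2 1.42.0, limma-voom (limma 3.58.1), other scalings, filters and thresholds, a replicate block, replicates 1 to 3 or 4 to 6 only, and leaving out each library, the last chosen after the data were seen.

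Replicate numbers were taken to pair libraries where each same-numbered pair deviated together from its group means with a correlation over 0.1. This held between Tug1-KD and control at EPS 0h (0.626 to 0.754) and EPS 3h (0.217 to 0.743), between EPS 0h and Rest in control (0.228 to 0.517) and Tug1-KD myotubes (0.165 to 0.427), between EPS 3h and Rest in control myotubes (0.127 to 0.524), and between EPS 3h and EPS 0h in Tug1-KD myotubes (0.174 to 0.789). In the other 3 comparisons 5 of 6 pairs passed, so the numbers were not taken to pair them. The deviations were not centred on the replicate sets, so libraries of the same set can correlate whatever their number. The check therefore cannot tell pairing by number from the parting of the sets.

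The chemokine genes and the gene lists were chosen with earlier results of these data known. Named from each list were its 4 genes with the highest mean RPM and the 2 called genes that changed most at each time in control myotubes, or all tested genes where 5 or fewer were tested, and for each chemokine gene the 3 genes with the highest Pearson r. Genes named beside these (those that did not pass the filter, the defining markers, and those called between Tug1-KD and control) were chosen after their values were seen.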

Additional observations from a re-analysis of the deposited data

Results flagged for a closer look

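In 7 of the 42 sets of 6 libraries (7 genes in 6 groups), the highest library lay farther from its neighbour than Dixon's 95% critical value of 0.625 allows. Chance gives about 1 in 20 for independent sets of normally distributed values. Here the genes varied together and RPM were not log-transformed, so that rate is only a guide. Rest Control replicate 6 accounted for 5 of the 7 sets. It held 159 RPM of *Ccl2*, 58.7 RPM of *Ccl7*, 117 RPM of *Cxcl1*, 32.8 RPM of *Cxcl5* and 7.82 RPM of *Cxcl10*, each the highest of its group. *Cx3cl1* was also highest there, at 79.4 RPM, but within the critical value, and *Cxcl12* was not the highest. Rest Tug1-KD replicate 6 was likewise the highest of its group for these 6 genes, within the critical value for each. Rest Control replicate 6 was also above the other 5 Rest Control libraries for *Nfkbia* (110.1 RPM against at most 76.7), *Relb* (74.1 against at most 50.3) and *Irf1* (101 against at most 65.8). Of 3 leukocyte markers tested it was above the others for *Cd68* (5.44 against at most 4.39) and not for *Cd14* (8.63, with up to 10.9 in the others) or *Ly6c2* (9.14, with up to 15.4). Of all genes tested 20.3% were above the other 5 Rest Control libraries in replicate 6 and 15.0% were below them. Of 14 myotube markers 5 were below the other 5 libraries, among them *Ckm* (178 against at least 235) and *Myog* (773 against at least 814), and 1 was above. Of 8 markers of unfused or cycling myoblasts 3 were above, *Pax7* (20.5 against at most 19.1), *Mki67* (51.8 against at most 48.9) and *Top2a* (55.7 against at most 53.0), and 2 were below. The part of these genes in its chemokine levels was not tested. *Ccl2* in EPS 3h Tug1-KD replicate 3 was at 42.3 RPM, and *Ccl7* in EPS 3h Control replicate 2 was at 39.8 RPM, each the highest of its group.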

How the results depend on the processing

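The calls of lower expression after stimulation of *Cxcl1*, *Cxcl5*, *Ccl2* and *Cx3cl1* against Rest were also made by DESeq2 and limma-voom, with 4 chemokine genes called at EPS 0h by both tools in each LNA group. At EPS 3h DESeq2 called 6 and limma-voom 5 in control myotubes, and 5 and 6 in Tug1-KD myotubes. At an FDR under 0.01 with an absolute log2FC above 1, 2 were past both limits at EPS 0h in each LNA group. From EPS 0h to EPS 3h in control myotubes, where the numbers were not taken to pair libraries, 2 were called with the replicate block (*Cxcl12* and *Cx3cl1*), 1 with a block for the replicate set, 1 within either set alone, and 0 to 1 with each library left out. In Tug1-KD myotubes that comparison gave 2 with DESeq2, limma-voom or scaling by library size only, 4 with either block, 3 in replicates 4 to 6, 0 at an FDR under 0.01 with or without the fold limit, and 0 to 2 with each library left out. Between Tug1-KD and control myotubes 1 (*Cx3cl1*) was called with the replicate block, with the set block and in replicates 4 to 6 at Rest, at EPS 0h and at EPS 3h. At Rest the numbers were not taken to pair libraries, and the blocked log2FC of *Cx3cl1* was -0.33 (edgeR, FDR = 0.00126). For EPS 3h against Rest in Tug1-KD myotubes, also unpaired, the block added *Cxcl10* and *Cxcl12*. Elsewhere the block changed no call but those given in the report.

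Signs turned only for differences that were not called, apart from *Ccl7* at EPS 3h in control myotubes, at 0.0089 in replicates 1 to 3. For Tug1 KD at Rest, limma-voom gave a log2FC of 0.0615 for *Ccl2*, 0.0455 for *Cxcl1* and 0.0762 for *Cxcl10*, the replicate block 0.0060 for *Ccl2* and 0.0701 for *Cxcl1*, replicates 4 to 6 gave 0.0038 for *Cxcl1* and replicates 1 to 3 0.0342 for *Cxcl10*. For Tug1 KD at EPS 0h, *Cxcl10* came to -0.0626 with limma-voom, -0.0125 with library size only, -0.0268 with upper quartile factors, -0.0382 with the replicate block, -0.0019 with the set block and -0.3142 in replicates 4 to 6. For Tug1 KD at EPS 3h, *Cxcl10* was at 0.0559 in replicates 4 to 6 and *Cxcl12* at 0.0132 in replicates 1 to 3. At EPS 0h against Rest in control myotubes *Ccl7* was at 0.1335 in replicates 1 to 3 and *Cxcl12* at 0.0552 in replicates 4 to 6, in Tug1-KD myotubes *Ccl7* was at 0.1884 in replicates 1 to 3, and from EPS 0h to EPS 3h in control myotubes *Cxcl10* was at 0.1060 in replicates 1 to 3. The cause was not tested.

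With each library left out in turn, differences that changed sign, none of them called, had these ranges of log2FC. For Tug1 KD at Rest they were -0.2336 to 0.3388 for *Ccl2*, -0.2261 to 0.0646 for *Ccl7*, -0.4764 to 0.4929 for *Cxcl1*, -0.6816 to 0.2966 for *Cxcl5* and -0.3557 to 0.3587 for *Cxcl10*. For Tug1 KD at EPS 0h they were -0.1651 to 0.0189 for *Ccl2*, -0.4335 to 0.0054 for *Cxcl1*, -0.0997 to 0.1760 for *Cxcl10* and -0.0440 to 0.1871 for *Cxcl12*. For Tug1 KD at EPS 3h they were -0.3642 to 0.1917 for *Cxcl10* and -0.1911 to 0.0929 for *Cxcl12*. For EPS 0h against Rest in control myotubes they were -0.2317 to 0.0530 for *Ccl7* and -0.1983 to 0.0328 for *Cxcl12*.

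Scaling by library size only moved the median log2FC of all genes by -0.17 at EPS 3h against Rest in control myotubes and by -0.16 in Tug1-KD myotubes. The share of calls that were lower then went from 49.8% to 67.4% and from 49.7% to 66.9%, at EPS 0h against Rest from 47.2% to 59.95% and from 46.4% to 59.4%, from EPS 0h to EPS 3h from 41.6% to 63.0% and from 45.4% to 62.9%, and for Tug1 KD at EPS 0h from 42.4% to 53.1%. *Cxcl5* and *Cxcl10* rested on as few as 8 reads a library, which limits their precision.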
